A study of Macaca mulatta with 48 samples.

Results

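Immediate early genes were followed through the testis of 6 rhesus monkeys (Macaca mulatta). The 10 genes described were FOS, FOSB, JUN, ATF3, NR4A1, NR4A3, DUSP1, BTG2, IER3 and RRAD, each found once by its symbol among the 26530 features of the count tables. Of them, 7 (DUSP1, RRAD, IER3, NR4A1, NR4A3, FOSB and BTG2) had been selected from the leading genes of Sertoli cell clusters in an earlier analysis of these same cells, and FOS, JUN and ATF3 were added to them. Levels by cell class and Sertoli cell differences between ages or seasons are therefore given as a description. Nothing is read from a count of tests of the 10 genes that includes Sertoli cells. Counts outside Sertoli cells are a description too, since the choice was made in the same libraries. The study had asked how testicular cells differ between the non-breeding season (August) and the breeding season (December) and with age, by droplet-based single-cell RNA sequencing in which a molecular barcode (UMI) lets each captured RNA be counted once. It used 2 prepubertal males of 1 year, 2 adult males of 6 years and 2 aged males of 22 years, and 1 testis of each male was taken in August and the opposite one in December. Season is thus compared between the testes of 1 male, of which the later one was taken after removal of the other, and these cannot be told apart. The 12 libraries were assigned to groups from the study's library sheet, since the labels list 48 samples (8 per group of age and season) and name no count table.

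Immediate early genes are transcribed within minutes of a stimulus from factors already present in the cell, with no need for new protein. Growth factors, hormones, stretch, heat and the dissociation of tissue into single cells are all known triggers, and the transcripts decay quickly. In the testis, FOS and JUN are known from work on Sertoli cells and Leydig cells stimulated with hormones. FOS, FOSB and JUN encode subunits of the transcription factor AP-1, and ATF3 encodes a related stress-induced factor. NR4A1 and NR4A3 are orphan nuclear receptors, and NR4A1 is known as a regulator of steroidogenic genes in Leydig cells. DUSP1 is a phosphatase that inactivates MAP kinases, BTG2 an antiproliferative protein, IER3 an early response protein tied to survival and NF-kappaB signalling, and RRAD a small GTPase that restrains calcium channels.

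The promoters are shown because cyclic AMP response elements (CRE, TGACGTCA) are a classical route to immediate early transcription. On the Mmul_10 assembly with RefSeq gene models, the 250 bases before the annotated start were searched on both strands for the CRE, for its core TGACGT, which overlaps every CRE, for the AP-1 site TGANTCA, and for the CArG box and the NF-kappaB site by their names, and on the gene's own strand for the TATA box TATAAA. The core was added after the windows had been read. The CRE lay in the windows of DUSP1 and BTG2, 2 of 10 genes, against 1.47% of 20782 gene windows. Its core lay in 6 of 10 (DUSP1, NR4A1, NR4A3, FOSB, BTG2 and FOS), against 6.44% of all windows. The TATA box lay in DUSP1, FOSB and FOS, 3 of 10 against 6.34%. The windows of JUN, ATF3, IER3 and RRAD held none of these matches. No window of the 10 held the CArG box (1.02% of all windows), the AP-1 site (5.15%) or the NF-kappaB site (9.55%), which says only that these letters were absent there. The windows of 5 genes with a core follow, 5′ to 3′ on the gene's strand, with CRE, core and TATA matches in capitals. They lie at chr6:170171765-170172014 (DUSP1, minus strand), chr11:51641976-51642225 (NR4A1, plus strand), chr15:43093905-43094154 (NR4A3, minus strand), chr19:45527435-45527684 (FOSB, plus strand) and chr1:60813517-60813766 (BTG2, plus strand).
DUSP1: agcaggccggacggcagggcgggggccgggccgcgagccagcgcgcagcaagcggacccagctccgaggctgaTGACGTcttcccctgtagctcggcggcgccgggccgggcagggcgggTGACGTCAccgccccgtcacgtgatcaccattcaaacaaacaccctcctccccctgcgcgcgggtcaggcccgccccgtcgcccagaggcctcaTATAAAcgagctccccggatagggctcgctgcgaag
NR4A1: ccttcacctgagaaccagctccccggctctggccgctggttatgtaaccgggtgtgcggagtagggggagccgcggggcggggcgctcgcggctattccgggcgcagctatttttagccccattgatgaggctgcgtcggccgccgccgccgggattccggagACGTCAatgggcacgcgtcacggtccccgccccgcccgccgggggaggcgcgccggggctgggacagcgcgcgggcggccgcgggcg
NR4A3: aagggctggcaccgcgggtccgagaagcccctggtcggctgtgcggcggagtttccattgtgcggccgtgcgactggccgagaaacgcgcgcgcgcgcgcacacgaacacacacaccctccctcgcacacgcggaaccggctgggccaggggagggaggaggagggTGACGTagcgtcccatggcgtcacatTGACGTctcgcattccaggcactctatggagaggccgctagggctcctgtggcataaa
FOSB: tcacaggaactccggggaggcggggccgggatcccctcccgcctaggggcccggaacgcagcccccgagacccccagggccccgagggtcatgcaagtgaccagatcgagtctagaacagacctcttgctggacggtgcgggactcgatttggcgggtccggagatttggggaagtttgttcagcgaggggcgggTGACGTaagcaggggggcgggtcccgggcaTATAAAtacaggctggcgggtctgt
BTG2: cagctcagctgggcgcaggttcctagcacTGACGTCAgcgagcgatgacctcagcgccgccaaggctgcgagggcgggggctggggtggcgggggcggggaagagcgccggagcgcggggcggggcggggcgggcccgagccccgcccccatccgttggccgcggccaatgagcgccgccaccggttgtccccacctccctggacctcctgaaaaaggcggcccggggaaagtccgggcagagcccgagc
Counted from the annotated start, the CRE of DUSP1 spanned bases -130 to -123 and that of BTG2 bases -221 to -214. DUSP1 held another core at -177 to -172. NR4A3 held its cores at -84 to -79 and -58 to -53, NR4A1, on the opposite strand, at -87 to -82 and FOSB at -55 to -50. The TATA box stood at -36 to -31 in DUSP1 at -25 to -20 in FOSB and, farther from the start, at -188 to -183 in FOS.

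**Figure D1:**
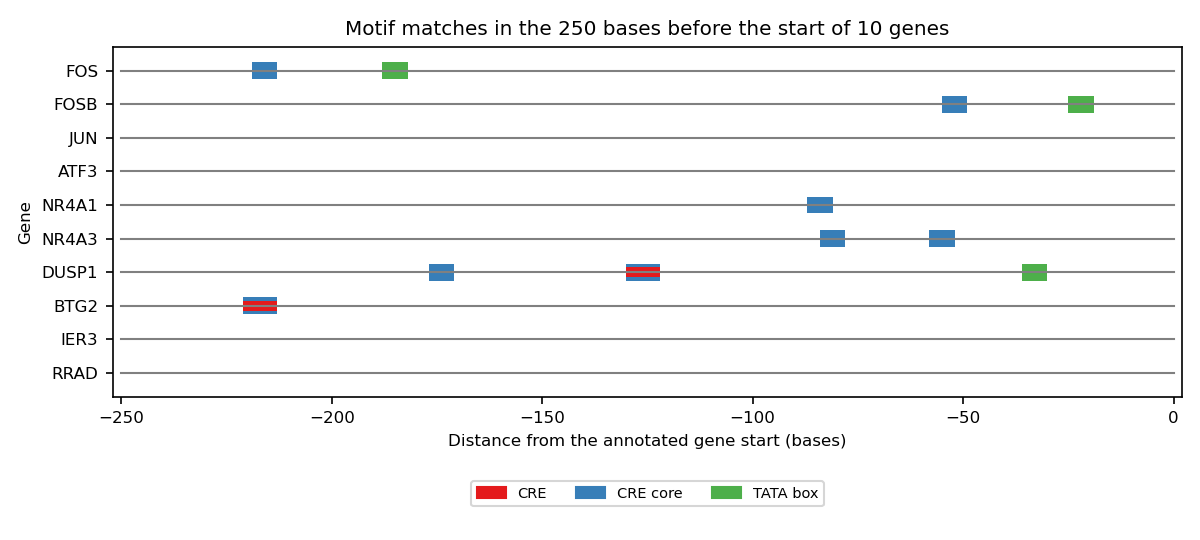
Motif matches (coloured boxes for CRE, its core and the TATA box) in the 250 bases before the annotated start (x axis, bases) of the 10 genes (y axis). The core is present in 6 of the 10 windows, and those of JUN, ATF3, IER3 and RRAD hold no match.

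All 10 are protein-coding genes of Mmul_10. DUSP1 lies at chr6:170168726-170171764 with 4 exons, FOSB at chr19:45527685-45534869, FOS at chr7:137394931-137397381 and NR4A1 at chr11:51642226-51666836. On chromosome 1 lie BTG2 (chr1:60813767-60815737), ATF3 (chr1:70055871-70109651) and the single-exon gene JUN (chr1:165651412-165653728). NR4A3 lies at chr15:43049933-43093904, IER3 at chr4:139170292-139170874 and RRAD at chr20:54097485-54101894.

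Of 112577 deposited barcodes, 112150 passed the cell filter, and removal of predicted doublets left 102736 cells. Of 39 clusters, 32 (96380 cells) were named from marker genes, and a class name below means a cluster like those cells. The clustering did not use the 10 genes. In 11 libraries the total was 23072680 to 43405583 UMIs. The breeding library of adult animal 2 stood apart, with 333 barcodes, 959819 UMIs, 117 cells and a median mitochondrial share of 17.6% before filtering, and 46 of its 117 cells shared their barcode with a cell of aged animal 1 in the breeding season. It reached 20 cells only in late spermatocytes (35), round spermatids (23) and elongated spermatids (40). Late spermatocytes (126 cells), round spermatids (29) and elongated spermatids (21) before puberty were found in animal 1 in the non-breeding season only. The study described the prepubertal testes as immature cords without clear lumens, and where these cells came from was not tested. Sertoli cells lay mostly in cluster 4, 5, 3 or 22 in the 4 prepubertal libraries and in cluster 0 or 2 in older animals, interstitial stromal cells in cluster 8 before puberty and 9 later, elongated spermatids in cluster 12, with HBE1 and HBA leading, for 85.9% of those in the non-breeding library of aged animal 1 and with the largest share in cluster 32 or 36 in other libraries, and peritubular cells of both prepubertal breeding libraries in cluster 24 and of other libraries in cluster 10.

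Levels are given in CPM, the usual scaled count, from the UMIs of a gene and all UMIs of the cells of a class in a library, for classes with at least 20 cells. Values of an age group are listed as the non-breeding and the breeding library of animal 1 and then of animal 2, and adult lists of 3 values end with the non-breeding library of animal 2. A level so summed cannot tell more transcripts per cell from more cells with the transcript, for which shares of cells are given further on. The summed level of the 10 genes was high in somatic and immune cells and low in germ cells, though not for each gene, since IER3 and NR4A3 had a median of 0 CPM in natural killer cells and ATF3 in Sertoli cells was above elongated spermatids in 4 of 8 shared libraries. The sum had a median over libraries of 4775 CPM in interstitial stromal cells (n = 11 libraries), 3824 in Leydig cells (n = 5, of which 4 were prepubertal), 3710 in peritubular and smooth muscle cells, 3468 in myeloid cells and 3189 in endothelial cells. It was 2076 in Sertoli cells, 1290 in natural killer cells, 201 in spermatogonia, 139 in early spermatocytes, 58.4 in elongated spermatids, 53.0 in round spermatids and 29.96 in late spermatocytes. Neighbours at the top of this order were not separated beyond the spread between libraries, since Leydig cells were above peritubular cells in 1 of 4 shared libraries, peritubular above myeloid cells in 3 of 9 and Sertoli above natural killer cells in 6 of 10. Natural killer cells were above spermatogonia in 10 of 10 shared libraries, and early spermatocytes above elongated spermatids in 8 of 8.

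**Figure D2:**
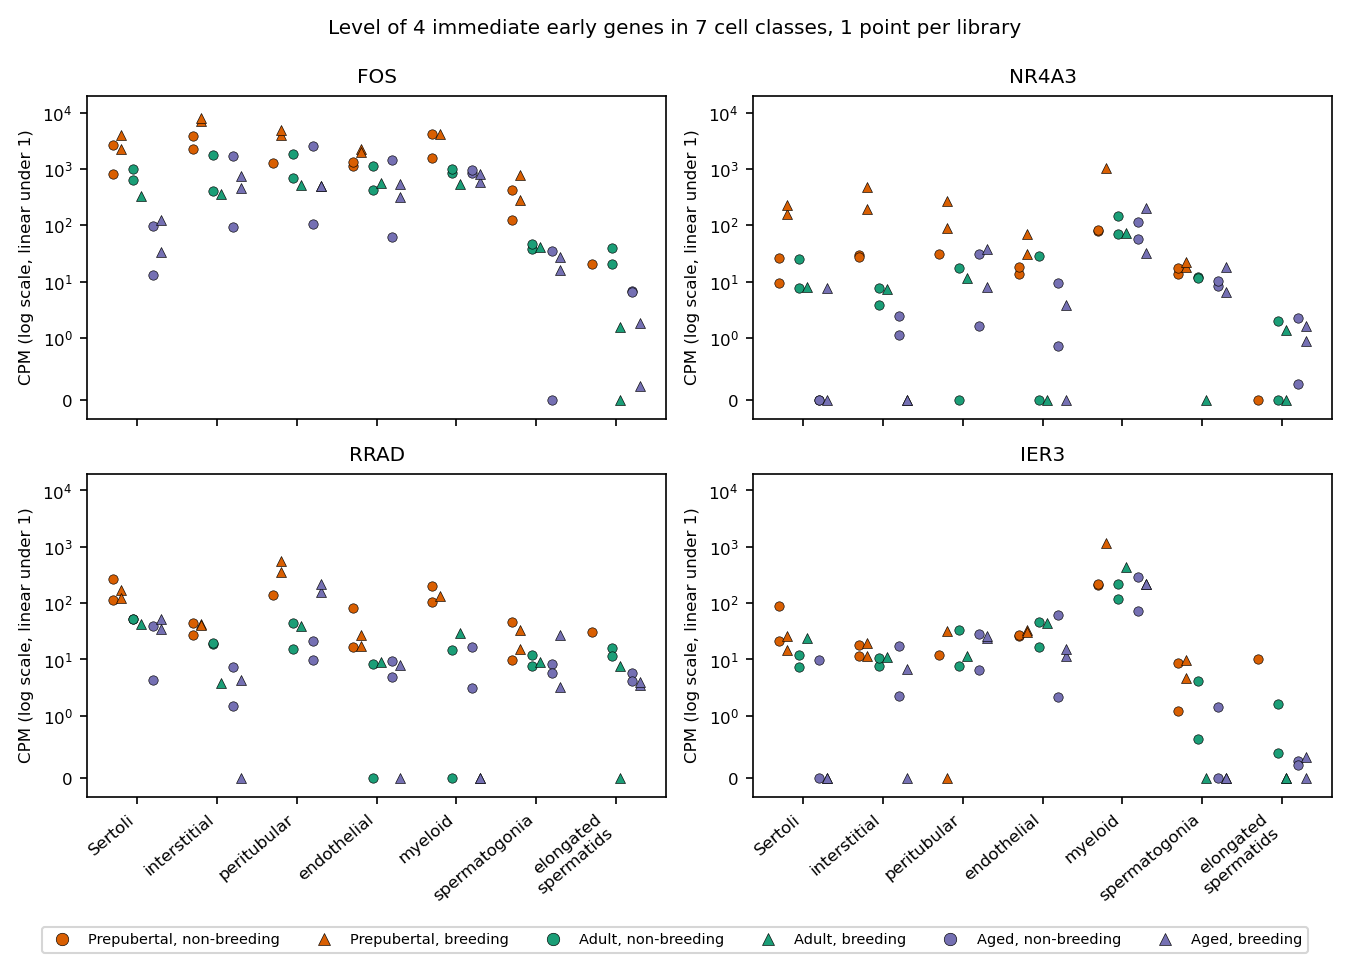
Levels of FOS, NR4A3, RRAD and IER3 (1 panel each, y axis in CPM, log scale and linear under 1) in 7 cell classes (x axis), with 1 point per library, coloured by age and shaped by season. FOS lies lower in spermatogonia and elongated spermatids than in most somatic classes, and IER3 and NR4A3 are highest in myeloid cells.

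The class with the highest level differed between genes. DUSP1, IER3 and NR4A3 each peaked in myeloid cells in 10 of 11 libraries and BTG2 in 7 of 11. RRAD peaked in peritubular cells in 6 of 11 libraries and in Sertoli cells in 4. JUN was highest in interstitial stromal cells in 5 of 11, and FOS in myeloid cells in 5 and in interstitial stromal cells in 3. In the 9 libraries with elongated spermatids, ATF3 there ranged from 12.3 to 30.5 CPM and overlapped between ages. NR4A1 in round spermatids was 19.4, 19.1, 18.1 and 15.2 CPM in aged libraries and 23.1, 29.1 and 26.6 CPM in the adult libraries with more than 100 cells, so those adult libraries lay above all aged ones, a difference seen after the values were read.

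Among the AP-1 genes, FOS in interstitial stromal cells was 2268, 6989.5, 3901 and 7898 CPM before puberty, 406, 364 and 1753 in adults and 93.9, 453, 1697 and 738 in aged animals. The lowest prepubertal value lay above the highest later one, and aged values spread widely. In myeloid cells FOS was 1531, 4096 and 4199 CPM before puberty (no value for the breeding library of animal 1), 859.6, 529 and 992 in adults and 862, 574, 969.6 and 801 in aged animals, with no overlap between prepubertal and older libraries. In endothelial cells the groups overlapped, with 1103, 2265, 1300.4 and 1963, 426, 571 and 1138 and 63.0, 323, 1451 and 547 CPM. FOSB, which pairs with JUN proteins as FOS does, was 371, 815, 764 and 1209.8 CPM in prepubertal interstitial stromal cells, 106, 97.7 and 427 in adult and 21.8, 110.0, 516 and 246 in aged ones, where the non-breeding libraries of adult animal 2 and aged animal 2 reached into the prepubertal range. JUN in peritubular cells was 1699, 2595 and 3331 CPM before puberty (no value for the non-breeding library of animal 2), 1729, 1008 and 2238 in adults and 151, 709, 3573 and 796 in aged animals. The age groups overlapped there, and the highest value of all was that of aged animal 2 in the non-breeding season. ATF3 in the same class had 171, 376 and 547 CPM before puberty, 46.2, 73.6 and 111 in adults and 16.4, 87.6, 343 and 135 in aged animals. Every adult library lay below the prepubertal ones, and aged animal 2 in the non-breeding season reached into their range.

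In prepubertal interstitial stromal cells the nuclear receptor NR4A3 was 29.3, 190.3, 27.4 and 484 CPM, against 3.79, 7.51 and 7.62 in adults and 1.11, 0, 2.46 and 0 in aged animals. Both breeding libraries of prepubertal animals were the high ones, and every prepubertal library lay above every older one. In myeloid cells NR4A3 was 78.8, 81.6 and 1057 CPM before puberty, 70.5, 73.4 and 146 in adults and 56.5, 31.9, 115 and 200.2 in aged animals, where only the breeding library of prepubertal animal 2 stood apart. NR4A1 in interstitial stromal cells was 215, 669, 480.3 and 1091, 110.0, 93.9 and 158 and 42.9, 52.8, 93.3 and 212 CPM in prepubertal, adult and aged libraries, and the lowest prepubertal value was just above the highest later one.

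Of the feedback genes, DUSP1 in myeloid cells was 604, 987 and 2114 CPM before puberty, 726, 573 and 627 in adults and 316, 391, 937 and 632 in aged animals, with overlapping groups. In endothelial cells DUSP1 was 320.3, 532, 244 and 470.0, 265, 402 and 433 and 62.1, 196, 643 and 242 CPM, also overlapping. In interstitial stromal cells BTG2 was 209, 416, 720.2 and 666 CPM before puberty, 28.4, 11.3 and 56.4 in adults and 9.98, 22.01, 101 and 6.84 in aged animals, and every prepubertal library lay above every later one. IER3 reached at most 87.3 CPM outside myeloid cells, in which it was 210.3, 218 and 1191 CPM before puberty, 119.8, 441 and 219 in adults and 71.1, 215, 296 and 216 in aged animals. Its breeding library of prepubertal animal 2 stood above all others. RRAD in peritubular cells was 140.1, 561 and 352 CPM before puberty, 15.4, 39.6 and 44.3 in adults and 9.84, 159, 21.7 and 218 in aged animals. Both aged breeding libraries lay above both aged non-breeding ones and above all adult ones.

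Libraries differed in the same direction across classes. Within the prepubertal group, the non-breeding library of animal 1 had the lowest summed level in 5 of 5 classes with 4 libraries, and the breeding library of animal 1 the highest in 4 of 5. Among 3 adult libraries, the breeding library of animal 1 was lowest in 9 of 11 classes and the non-breeding one of animal 2 highest in 7 of 11. Within the aged group, the non-breeding library of animal 1 was lowest in 7 of 11 classes and that of animal 2 highest in 9 of 11. In aged interstitial stromal cells this range ran from 361 to 5250.4 CPM, and in aged peritubular cells from 453 to 8287 CPM. The time from surgery to capture was not used here, and its part in these differences was not tested.

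**Figure D3:**
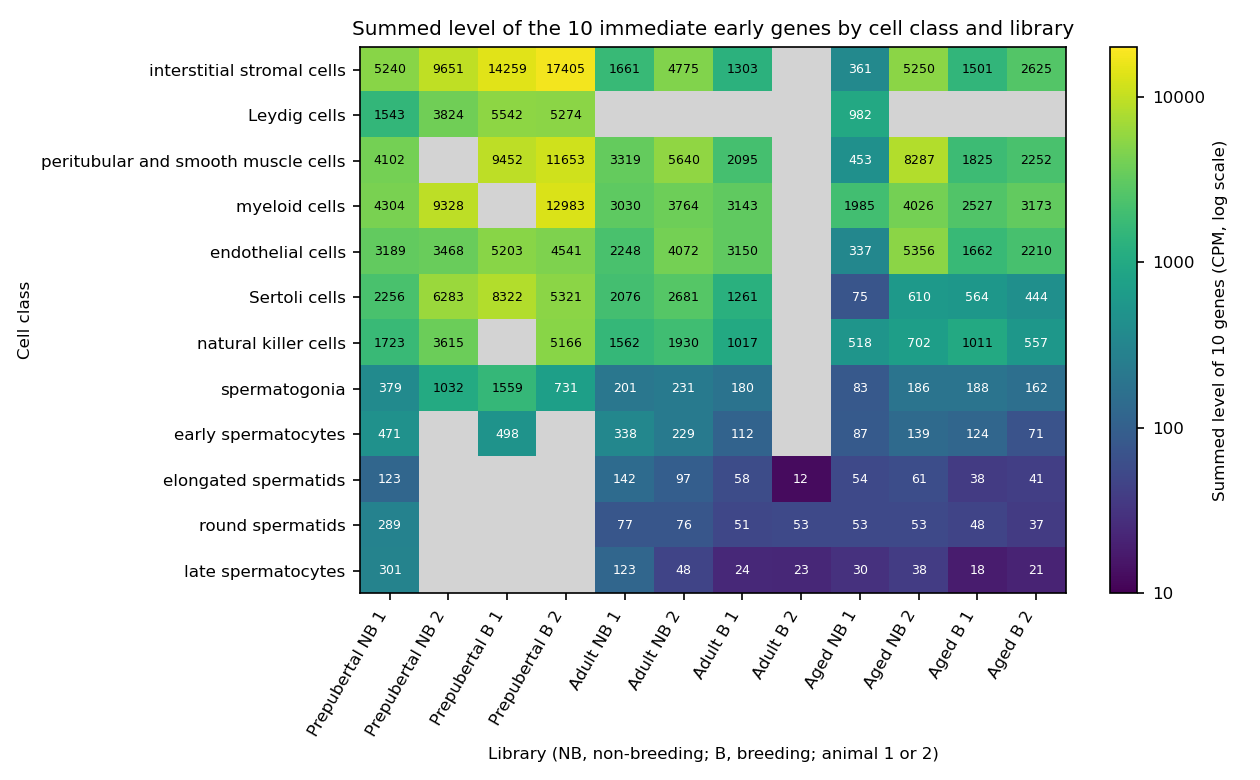
Summed level of the 10 genes (colour and printed value in CPM, log colour scale from dark for low to yellow for high) by cell class (y axis) and library (x axis, by age, season and animal), grey where a class had fewer than 20 cells. In interstitial stromal cells the non-breeding libraries of aged animals 1 and 2 stand at 361 and 5250.4 CPM.

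Cells with FOS transcripts were counted after each cell was thinned to 1000 UMIs, which kept 84734 of 96261 cells and left out 4028 prepubertal, 3180 adult and 4319 aged cells. In interstitial stromal cells 77.3% to 97.7% of prepubertal cells held a FOS UMI, against 19.7% to 59.1% in adult and 6.23% to 45.8% in aged libraries. Before thinning these ranges were 77.7% to 94.9%, 20.4% to 51.2% and 8.46% to 54.9%, at median depths of 1027 to 1806, 840.0 to 1029 and 709 to 1284 UMIs. In Sertoli cells the thinned share was 48.7% to 92.3% before puberty, 25.1% to 47.0% in adults and 0% to 12.1% in aged animals, and before thinning 69.3% to 94.6%, 34.9% to 63.1% and 1.42% to 19.1%. In spermatogonia it was 8.28% to 31.9%, 2.20% to 4.55% and 0% to 4.88%, against 19.2% to 62.9%, 7.06% to 9.89% and 0% to 6.67% before thinning. Elongated spermatids, the class set beside them for free RNA, held a FOS UMI in 0.166% to 5.48% of adult and 0% to 0.446% of aged cells after thinning, and in 0% to 9.47% and 0.0781% to 1.68% before. Within a library, the thinned share in spermatogonia was below that of elongated spermatids in the non-breeding library of adult animal 1 (2.20% against 5.48%). The part of free RNA in either share was not tested. The non-breeding library of aged animal 1 held 0 FOS UMIs in 41 spermatogonia, too few cells to set against 0.446%. The share was above that of elongated spermatids in the other 5 adult and aged libraries, as in the non-breeding one of adult animal 2 (4.55% against 2.62%). Of these, the aged breeding libraries rested on few cells. Before thinning they held 5 FOS UMIs in 142 spermatogonia (animal 1) and 3 in 59 (animal 2). For prepubertal spermatogonia no such comparison within their age is given, since the 21 prepubertal elongated spermatids were too few. The part of free RNA in the share of prepubertal spermatogonia was not tested.

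Age was compared on counts summed per animal and class, over 11 classes, with the edgeR quasi-likelihood test and Benjamini-Hochberg adjustment within a class over all genes. From prepubertal to adult animals (n = 2 and 2, but 1 prepubertal animal in early and late spermatocytes and in round and elongated spermatids, taken to vary like the other groups), 15 of the 92 tests of the 10 genes outside Sertoli cells passed, all lower in adults. Over all genes in the same classes 5.54% of tests passed, and 1.12% passed as lower in adults. The choice from Sertoli cell clusters was made in the same libraries, so the count of 15 is a description. Among the 15, FOS in late spermatocytes had 1 prepubertal animal. The median log2 difference was -1.24 for the 10 genes and 0.12 for all genes. DESeq2 called 16, against 6.51% of all tests. In edgeR 35 had an unadjusted p under 0.05, where 19096 of 114534 tests of all genes did. The 15 differences stayed lower in adults wherever they could be fitted with 1 animal left out, but 7 still passed without prepubertal animal 2, 9 without adult animal 2, 8 of 14 without prepubertal animal 1 and 9 without adult animal 1. The count itself moved to 7 without prepubertal animal 2. No share over all genes is given for that fit, and nothing is read from its count. With Sertoli cells, from which nothing is read, 21 of 102 passed in edgeR, against 7.33% of all tests and 1.88% as lower in adults, and 24 in DESeq2, against 9.99%.

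In spermatogonia 7 of 9 tested genes were lower in adults, where 0.797% of all genes were. FOS was 122, 785, 414 and 282 CPM before puberty and 38.4, 41.3 and 46.8 in adults, a log2 difference of -3.29 ± 0.27 (SE, edgeR quasi-likelihood adjusted p = 0.000215). Every prepubertal library lay above every adult one. JUN was 101, 274, 184 and 126 CPM against 54.8, 29.5 and 47.8, with -1.79 ± 0.26 (edgeR adjusted p = 0.0028), again without overlap. BTG2 differed by -2.54 ± 0.43, DUSP1 by -1.76 ± 0.26, FOSB by -1.75 ± 0.33, NR4A1 by -1.46 ± 0.24 and RRAD by -1.46 ± 0.36 on the log2 scale (edgeR adjusted p = 0.0064, 0.0033, 0.0121, 0.0056 and 0.0458). The lowest prepubertal value lay below the highest adult one for DUSP1 (32.2 and 41.3 CPM), FOSB (24.7 and 25.8) and RRAD (9.90 and 12.06), but not for BTG2 and NR4A1. FOS remained past the threshold without any 1 animal. Without prepubertal animal 1 the other genes but FOSB did not pass, and without prepubertal animal 2 neither BTG2, NR4A1, FOSB nor RRAD did. FOSB (adjusted p = 0.0521) and RRAD (0.0532) also missed it without adult animal 2, RRAD without adult animal 1 (0.257) and RRAD in DESeq2 (0.179).

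With predicted doublets kept, the mean summed level of the 10 genes in prepubertal spermatogonia was 1487 CPM in place of 925, and in adult ones 276 in place of 204. Markers of Sertoli cells reached higher in prepubertal than in adult spermatogonia, with overlapping ranges, and were lowest in aged ones. Their 12 genes summed to 1124 to 1833 CPM in prepubertal spermatogonia (11 to 12 of 12 present), 667 to 1303 CPM in adult (12 of 12) and 207 to 431 CPM in aged ones (8 to 12 of 12). Interstitial stromal markers were 904 to 1325, 973 to 1207 and 517 to 1118 CPM, and myeloid markers 37.1 to 54.4, 45.0 to 50.4 and 36.0 to 108 CPM. Per 1000 UMIs of Sertoli markers, FOS in the prepubertal libraries stood at 66.5, 366, 230.1 and 209 UMIs in Sertoli cells and at 101, 428, 292 and 251 UMIs in spermatogonia. The ratio of spermatogonia to Sertoli cells was thus 1.51, 1.17, 1.27 and 1.20 for FOS before puberty and 0.562, 2.08 and 0.734 in adults. For the 10 genes together it was 1.66, 1.11, 1.35 and 1.32 before puberty, 0.895, 2.33 and 1.32 in adults and 9.32 to 13.4 in aged libraries. In spermatogonia the aged ratios rested on 10, 58, 130 and 18 UMIs of the 10 genes over 52, 64, 186 and 26 marker UMIs. The part of Sertoli cell RNA in the spermatogonial result was not tested.

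**Figure D4:**
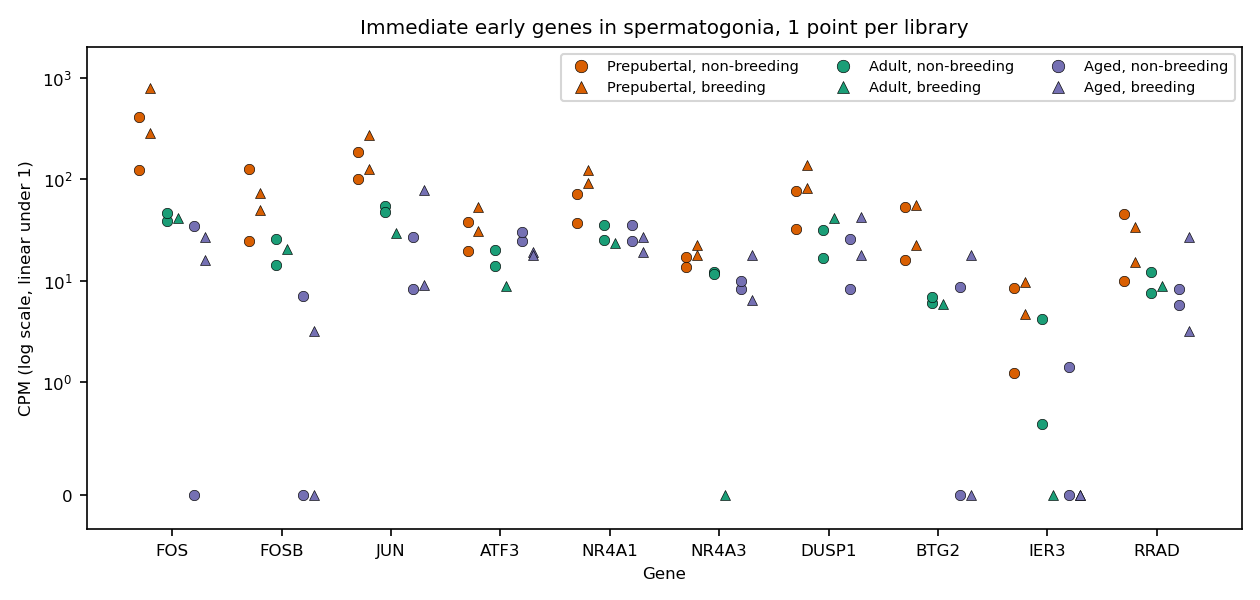
Levels of the 10 genes (x axis) in spermatogonia (y axis in CPM, log scale and linear under 1), with 1 point per library, coloured by age and shaped by season. The 4 prepubertal libraries lie above the 3 adult ones for FOS and JUN.

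In interstitial stromal cells NR4A3 was lower in adults by -4.66 ± 0.61, BTG2 by -3.62 ± 0.84 and NR4A1 by -2.09 ± 0.51 on the log2 scale (edgeR adjusted p = 0.0015, 0.0163 and 0.0211), 3 of 10 genes where 5.14% of all genes were lower. The call of NR4A3 held without any 1 animal. That of BTG2 was lost without adult animal 1 or 2 (adjusted p = 0.119 and 0.0664), and that of NR4A1 without adult animal 1, adult animal 2 or prepubertal animal 2 (0.135, 0.0779 and 0.0589). In myeloid cells 3 of 10 were lower, where 3.42% of all genes were. RRAD was 105, 204 and 134 CPM before puberty and 0, 29.4 and 14.6 in adults, with 0 UMIs in 1 adult library and 1 or 2 UMIs in the others, and differed by -3.69 ± 0.72 (edgeR adjusted p = 0.0024). FOS differed by -1.81 ± 0.56 and BTG2 by -1.57 ± 0.47 there (edgeR adjusted p = 0.0352 and 0.0314). Without prepubertal animal 2 none of these 3 passed (0.0637, 0.273 and 0.274), FOS also missed without prepubertal animal 1 (0.0805) or adult animal 2 (0.0529) and with no filter on low counts (0.0976), and BTG2 without adult animal 1 (0.112) or in DESeq2 (0.0523). In peritubular cells RRAD was lower by -3.33 ± 0.53 (edgeR adjusted p = 0.0012), and without adult animal 1 it missed the threshold. The prepubertal breeding libraries, at 561 and 352 CPM, lay mostly in cluster 24, with COX4I2, RERGL and RGS5 among its leading genes. Other libraries lay mostly in cluster 10, with MYH11, MGP and SMOC2 among its leading genes. The part of this difference in the RRAD result was not tested. In late spermatocytes FOS was 93.3 CPM in the single prepubertal library and 36.6, 2.03, 14.8 and 0 in adults, with -2.29 ± 0.30 (edgeR adjusted p = 0.0271), lost without adult animal 1 (0.0520) or adult animal 2 (0.0708) and with no test possible without prepubertal animal 1, the only source of those cells. The prepubertal side of this test has no spread of its own. In elongated spermatids FOS was 20.6 CPM in the same prepubertal library and 39.8, 1.54, 20.4 and 0 CPM in adults, and the part of free RNA in the late spermatocyte call was not tested. Sertoli cell markers moved with these calls. They summed to 4571 to 8384 CPM in prepubertal and 631 to 2480.1 CPM in adult myeloid cells (11 of 12 and 5 to 10 of 12 present) and to 3191 to 4306 CPM and 787 to 2446 CPM in peritubular cells (11 to 12 and 8 to 12 present), without overlap. In late spermatocytes they were 1634 CPM in the prepubertal library and 117 to 960.4 CPM in adults (12 and 4 to 12 present), and in interstitial stromal cells the ranges of 1865 to 2859 CPM and 748 to 2646 CPM overlapped (12 and 11 to 12 present). The part of Sertoli cell RNA in these results was not tested. In endothelial cells 0 of 9 passed in edgeR, and none had an unadjusted p under 0.05. No share over all genes of that class stands beside these counts, and nothing is read from them.

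Sertoli cells, from which the genes had been chosen, are described only. FOS there was 802, 3971, 2686 and 2254 CPM before puberty, 631, 324 and 979 in adults and 12.8, 122, 98.4 and 34.1 in aged animals. DUSP1 was 155, 791, 376 and 504, 60.5, 74.8 and 105 and 17.1, 22.9, 46.8 and 68.3 CPM, and NR4A1 109.7, 729, 299.8 and 690.4, 117, 51.0 and 139.8 and 0, 7.62, 17.2 and 51.2 CPM. For DUSP1 every prepubertal library lay above every later one, whereas for FOS and NR4A1 the non-breeding library of prepubertal animal 1 lay within the adult range. In edgeR 6 of the 10 were lower in adults, where 7.26% of all genes were, and nothing is read from that count because the genes were chosen there.

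From adult to aged animals 23 of 92 tests outside Sertoli cells had an unadjusted p under 0.05 in edgeR, where 14862 of 114534 tests of all genes did. After adjustment 2 passed, where 0.523% of all tests did and 0.178% as lower in aged animals. Both were FOS, in early and late spermatocytes. In early spermatocytes FOS was 58.4, 16.0 and 40.2 CPM in adults and 19.4, 6.64, 14.7 and 0 in aged animals (log2 -2.21 ± 0.35, edgeR adjusted p = 0.0414), and in late spermatocytes 36.6, 2.03, 14.8 and 0 against 6.18, 1.41, 5.53 and 1.76 CPM (-2.01 ± 0.27, adjusted p = 0.0297). Adult and aged ranges overlapped in both. In early spermatocytes the aged values rested on 2, 3, 9 and 0 FOS UMIs, and the adult breeding value on 4. In elongated spermatids of the same libraries FOS was 39.8, 1.54, 20.4 and 0 CPM in adults and 6.77, 0.238, 6.54 and 1.83 CPM in aged animals, and the part of free RNA in both spermatocyte calls was not tested. In late spermatocytes the largest share of the adult non-breeding library of animal 1 lay in cluster 27, and that of every aged library in cluster 31. Sertoli cell markers were at 769 to 1602 CPM in adult and 86.3 to 368 CPM in aged early spermatocytes (10 to 12 and 6 to 10 of 12 present), without overlap, and at 117 to 960.4 CPM and 79.9 to 162 CPM in late spermatocytes (4 to 12 and 11 to 12 present), and their part in both calls was not tested. Neither passed without aged animal 1 or without aged animal 2, and FOS in late spermatocytes passed neither without adult animal 1 nor when aged animal 1 lost its non-breeding library. The count itself moved to 1 without aged animal 1, a test higher in aged animals, and to 4 without adult animal 2 and 13 without aged animal 2. No share over all genes is given for the fits with 1 animal left out, and nothing is read from their counts. DESeq2 called 4, against 2.3% of all tests, which were FOS in both classes and FOSB and JUN in late spermatocytes. With Sertoli cells, from which nothing is read, 2 of 102 passed in edgeR, against 0.458% of all tests and 0.156% as lower, and 9 in DESeq2, against 2.34%.

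The seasons were compared per library. Taking the summed level of the 10 genes, prepubertal animal 1 was higher in the breeding season in 7 of 7 classes (median log2 of 1.44) and prepubertal animal 2 in 5 of 7 (0.46). Adult animal 1 was higher in 2 of 11 (median -0.62) and adult animal 2 in 0 of 3 (-0.89), where its breeding library held 1 UMI of the 10 genes together in each class. Aged animal 1 was higher in 8 of 11 (0.96) and aged animal 2 in 0 of 11 (-0.53). The 2 aged animals thus moved in opposite directions. Each animal has 1 library a season, so a season and a library cannot be told apart within it.

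**Figure D5:**
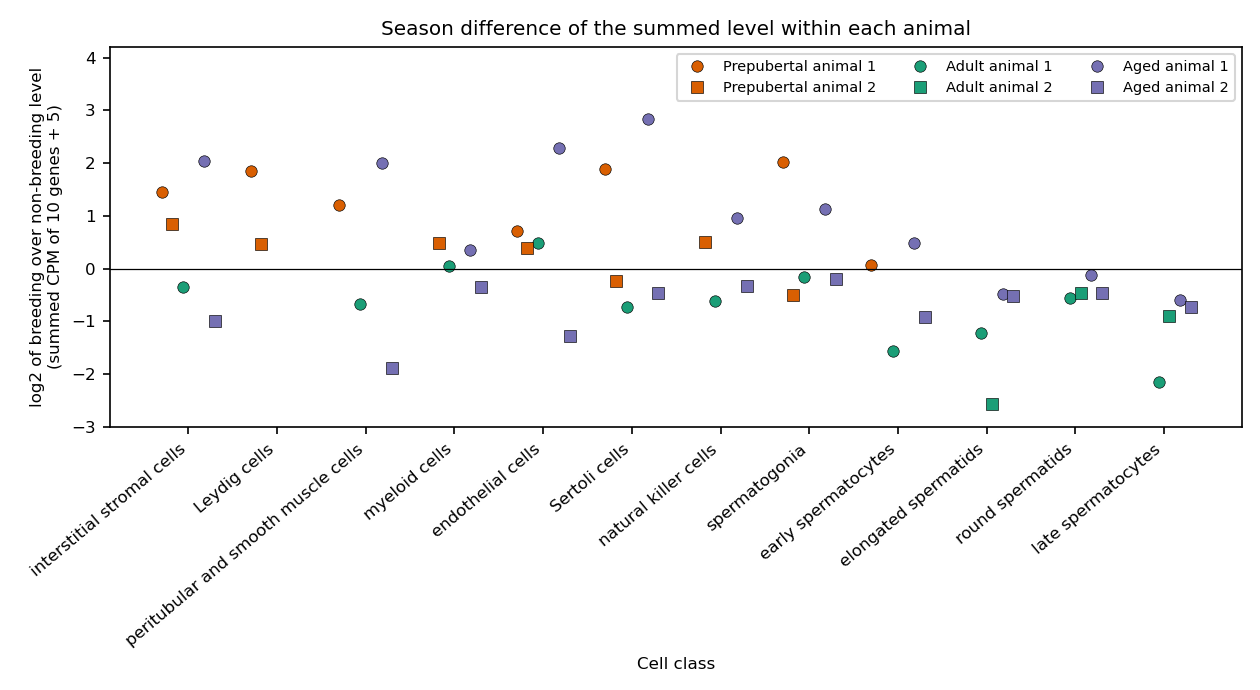
Log2 ratio of the breeding over the non-breeding summed level of the 10 genes (y axis, 5 CPM added to both) by cell class (x axis), with 1 point per animal, coloured by age and shaped by animal. Prepubertal animal 1 lies above 0 in 7 of 7 classes and aged animal 2 below 0 in 11 of 11.

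Tested per gene and class in edgeR without the animal in the model, no season difference of the 10 genes passed. That fit leaves out the pairing of the testes of a male, which the fit with the animal as a block includes. Season counts given for edgeR alone are of the unpaired fit. For season and season by age tests no share over all genes stands beside the counts at an unadjusted p under 0.05 or with 1 library left out. Nothing is read from these counts. In prepubertal animals 0 of 82 passed, against 0.0179% of all tests, 19 had an unadjusted p under 0.05 and DESeq2 called 2, against 0.182%. Both were NR4A3, in Sertoli cells (log2 3.48) and interstitial stromal cells (3.54), with edgeR adjusted p = 0.393 and 0.146. With the animal as a block, 10 of 82 passed, all higher in the breeding season, against 1.0% of all tests. They were NR4A3 in Sertoli cells (log2 3.602), interstitial stromal cells (3.41) and myeloid cells (3.52), NR4A1 in Sertoli, interstitial stromal and Leydig cells, DUSP1 in interstitial stromal and Leydig cells, FOS in Leydig cells and IER3 in myeloid cells (2.28). The Sertoli cell values are a description, since the genes were chosen from those clusters, and nothing is read from the counts that include them. NR4A3 in Sertoli cells was 9.30, 157, 26.6 and 225 CPM, so that both breeding libraries lay above both non-breeding ones. In myeloid cells the block rests on prepubertal animal 2, since the breeding library of animal 1 held 17 of these cells. Without the non-breeding library of animal 2 the unblocked count was 5, and without either breeding library 1.

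In adults 0 of 99 season tests passed in edgeR, against 0.21% of all tests, 14 had an unadjusted p under 0.05 and DESeq2 called 1 (FOS in late spermatocytes, log2 -3.51), against 0.466%. With the block 10 passed, 9 lower and 1 higher in the breeding season, against 6.97% of all tests. Lower were FOS, FOSB and JUN in late spermatocytes and round spermatids, FOS and FOSB in elongated spermatids and NR4A1 in peritubular cells, and higher was IER3 in myeloid cells. FOS in elongated spermatids was 39.8, 1.54, 20.4 and 0 CPM in adults, where the last value came from the library of 40 such cells. FOS in late spermatocytes, at 36.6, 2.03, 14.8 and 0 CPM, was high and low in the same libraries, and the part of free RNA in the adult and aged season values of spermatocytes and spermatids was not tested. The adult block rests on animal 1 alone outside late spermatocytes and spermatids, and in those classes the breeding library of animal 2 held 0 UMIs of FOS, FOSB and JUN in 35, 23 and 40 cells. Leaving out adult animal 2's non-breeding library made the unblocked count 4. In aged animals 0 of 99 passed in edgeR, against 0.00247% of all tests, 9 had an unadjusted p under 0.05 and DESeq2 called 1 (RRAD in peritubular cells), against 0.00165%. The block called 3, against 0.341%, which were FOS in late spermatocytes (log2 -1.79), FOSB in round spermatids (-2.47) and RRAD in peritubular cells. RRAD rested on 6, 20, 7 and 34 UMIs in the 4 aged libraries and, as an earlier result of that comparison was known, is a description only. Leaving out the non-breeding library of either aged animal made the unblocked count 3.

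The difference of the season change between ages was not called in edgeR without the animal in the model. Adult minus prepubertal gave 0 of 73, against 0.0221% of all tests (9 with an unadjusted p under 0.05, DESeq2 0 against 0.378%). With the block it gave 2, against 2.77%, which were NR4A1 and NR4A3 in Sertoli cells (log2 -3.19 and -3.57). Both lie in the class from which the genes were chosen, so nothing is read from that count. Aged minus adult gave 0 of 99, against 0.0107% (7 with an unadjusted p under 0.05, DESeq2 0 against 0.0173%), and with the block 1, JUN in late spermatocytes (1.99), against 3.04%. Leaving out aged animal 2's non-breeding library made the unblocked count of this last comparison 3.

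Over 115 sums of a class in a library, each gene's log2 level was correlated with the mean of the 10, which is a description since sums share libraries and depth. FOS (Pearson r = 0.973), FOSB (0.967), DUSP1 (0.954) and BTG2 (0.948) lay closest to that mean, which contains them, and RRAD (0.662) and IER3 (0.726) farthest. Between pairs r ran from 0.338 for RRAD with IER3 to 0.968 for FOS with FOSB. A mean of at least 20 CPM over these sums was reached by 8862 genes, with those of the pathway lists included. Of those off the lists, the most like the mean of the 10 were CCNL1 (0.915), SH3BGRL (0.898), DDIT4 (0.889), IRF9 (0.885), ENSMMUG00000058532 (0.885), NXPE3 (0.881), TPT1 (0.865), RPL39 (0.862), P2RX4 (0.857) and SCARB2 (0.856).

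Other genes of the response were read from 3 lists. Of 262 tests of 38 further immediate early genes, 30 passed from prepubertal to adult animals, 28 lower and 2 higher, against 7.33% of all tests and 1.88% lower. Lower were 11 of 36 in Sertoli cells, 9 of 32 in interstitial stromal cells and 5 of 28 in spermatogonia, where 7.26%, 5.14% and 0.797% of all genes were. GADD45B, a stress-induced growth arrest gene, was lower in spermatogonia by log2 -1.95 (edgeR adjusted p = 0.0016) and ZFP36, which promotes mRNA decay, by -1.40 (0.0251). MCL1, a survival gene, was lower in interstitial stromal cells by -1.95 (edgeR adjusted p = 0.0119) and ZFP36L1 by -1.33 (0.0132), and in Sertoli cells ZFP36L1 was lower by -1.06 (0.0231) and NFKBIA, the inhibitor of NF-kappaB, by -0.995 (0.0386). JUND passed in no class in this comparison. Of 125 tests of 12 heat shock genes 8 passed, 4 in each direction, a share near the 7.33% of all tests, with HSP90AB1 lower in interstitial stromal cells (log2 -0.90, edgeR adjusted p = 0.0350), DNAJA1 higher in endothelial cells (1.11, 0.0416) and HSP90AA1 called nowhere. Of 169 tests of 18 upstream regulators, such as SRF and CREB1, 7 passed, all lower in adults, against 7.33% of all tests and 1.88% lower. From adult to aged animals 0, 1 and 0 tests of these 3 lists passed in edgeR, against 0.458% of all tests. At an unadjusted p under 0.05 there were 38, 22 and 19, and outside Sertoli cells 14862 of 114534 tests of all genes.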

How the data were processed

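Per the submitters' processing notes, Cell Ranger 9.0.0 and Mmul_10 were used, and the authors deposited a raw UMI count per gene and barcode for each of 12 libraries. The handling of intronic reads is not given in sources used here. The 10 genes and all lists were chosen with earlier results of these data known. Cells were kept with 300 genes or more, up to 30000 UMIs and up to 3% mitochondrial UMIs. The highest doublet scores of Scrublet (0.8% per 1000 cells) were removed (9414 cells, 8.39%), none of them in the library of 117 cells, and scanpy 1.11.5 clustered the rest by Leiden at resolution 2 without 78 pathway genes. Clusters took the name of the best-scoring marker list, and 7 clusters (6356 cells) stayed unnamed. Clusters 1 and 3, with KLRD1 among their 10 leading genes, were kept as Sertoli cells, a choice made after the data were seen, and 26 erythroid cells were left out. The authors' removal of clusters with high ambient RNA scores was not repeated. Counts of a class with at least 20 cells were summed per library (season) or animal (age) and tested with edgeR 4.0.16 (quasi-likelihood, TMM, filterByExpr, Benjamini-Hochberg at 0.05 within a class and comparison) in R 4.3.3, and with DESeq2 1.42.0 as an alternative. A test of 10 genes is 1 per gene and class that passed the filter. In most classes the adult breeding arm was 1 library, and in 4 germ cell classes the prepubertal arm of the age tests 1 animal, each assumed to vary like the others. Animals were taken from the number in the library name, and the library sheet calls the prepubertal group puberty. Libraries with the same number are taken as both testes of 1 male, as the study's design has it, and their deviations from group means correlated at -0.0315 to 0.600 over 19 sets of a class and age. P-values of the age tests measure the spread between animals of an age, pooled over ages. Those of the unblocked season tests measure the spread between libraries of a group, pooled over groups. Where a block rests on 1 animal of an age, its p-value takes its spread from the other ages. Intervals of shares are not given, as libraries are the unit. All 10 genes, the 6 immediate early and 3 heat shock genes with the highest CPM, and the 10 genes of most similar pattern are named. The tests were also run on simulated counts with set differences as a check of the code, from which nothing is read about these data.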

Additional observations from a re-analysis of the deposited data

Results flagged for a closer look

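In groups of 4 libraries, 1 library stood apart from the other 3 (gap to the nearest over the range above Dixon's 95% value) in 20 of 209 sets of a gene, class and age. A set with 0 UMIs in 3 libraries is flagged whatever the value of the other, so this count is not set against chance. In the non-breeding library of aged animal 2 these were FOS (2530.4 CPM) and BTG2 (461 CPM) in peritubular cells, BTG2 in interstitial stromal cells (101 CPM) and early spermatocytes (1.63 CPM), ATF3 in elongated spermatids (29.7 CPM), JUN in round spermatids (5.26 CPM), and IER3 in Sertoli cells (9.84 CPM) and spermatogonia (1.43 CPM), of which BTG2 in early spermatocytes and IER3 in spermatogonia rested on 1 UMI each. The non-breeding library of aged animal 1 stood apart in natural killer cells for IER3 (5.64 CPM), NR4A3 (7.18 CPM) and RRAD (4.87 CPM), with 0 UMIs of each in the other 3 libraries, which held 33 to 61 of these cells against 2109. The breeding library of aged animal 1 did so for NR4A3 in Sertoli cells (7.62 CPM) and early spermatocytes (2.21 CPM), on 1 UMI each.

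Before puberty, the non-breeding library of animal 2 stood apart for ATF3 in Leydig cells (116 CPM), IER3 in Sertoli cells (87.3 CPM) and RRAD in endothelial cells (81.3 CPM), the breeding library of animal 2 for NR4A3 in Leydig cells (91.8 CPM), and the non-breeding library of animal 1, the lowest, for RRAD in interstitial stromal cells (27.6 CPM). In adults these were FOSB in late spermatocytes of the non-breeding library of animal 1 (21.3 CPM) and ATF3 in round spermatids of the breeding library of animal 2 (53.4 CPM), which rested on 1 UMI in 23 cells.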

How the results depend on the processing

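None of the 23 called age tests of the 10 genes changed direction under the alternatives run. Season differences that were not called did, as for NR4A3 in adult round spermatids (log2 -0.37, 0.44 with the replicate block and 0.85 in DESeq2). The prepubertal season count of 0 became 2 in DESeq2, 10 with the animal as replicate block and 7 with no filter on low counts, and 0 to 5 with 1 library left out. The adult count of 0 became 1, 10 and 8, and 0 to 4, and the aged count of 0 became 1, 3 and 2, and 0 to 3. The season by age count of 0 became 2 with the replicate block and 7 with no filter for adult minus prepubertal, and 1 with the replicate block for aged minus adult, where leaving out 1 library gave 0 to 3. The age count of 21 became 42 with no filter and 8 to 25 with 1 animal or library left out, and the count of 2 became 9 in DESeq2, 14 with no filter and 1 to 13. No block was fitted for the age tests, where the libraries of an animal were summed. The cause of these changes was not tested. No share over all genes stands beside the counts with no filter on low counts or with 1 animal or library left out. Nothing is read from those counts. The fits that leave 1 library out of an animal's sum, and the level without the 2 Sertoli clusters with KLRD1 among their leading genes, which moved by less than 1 SD, were added after seeing the data. Of the 21 age calls, which include 6 in Sertoli cells, 21 were kept with DESeq2's size factors, 20 with no filter and 19 in DESeq2, and of the 15 others 15, 14 and 13.

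For the mean summed level of a group, Leiden resolution 1 gave 148 CPM in aged early spermatocytes (105 as reported) and 105 CPM in adult round spermatids (64.0). Thinning cells to 1000 UMIs gave 138 CPM in aged early spermatocytes and 982 CPM in aged natural killer cells (697). Keeping predicted doublets gave 643 CPM in prepubertal early spermatocytes (485), 276 CPM in adult spermatogonia (204) and 1487 CPM in prepubertal spermatogonia (925). The other 114 level comparisons moved by less than 1 SD between libraries. So did all 111 with 1 library left out, but dropping 1 value cannot shift a mean by 1 SD of the same values. Nothing is read from those 111. Of single-gene tests, 68 of 77 kept their side of the threshold under other settings and 96 of 144 with 1 animal or library left out. With 2 animals per age, and few cells of some classes, small differences could not be resolved.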
